A study of Homo sapiens with 5 samples.

Results

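The clustered protocadherins are cell surface adhesion proteins encoded by neighbouring gene clusters on chromosome 5, named PCDHA, PCDHB and PCDHG. The members described here were the rows of the deposited table whose Ensembl identifier belongs to a protein-coding gene on chromosome 5 with a symbol beginning PCDHA, PCDHB or PCDHG. The annotation holds 53 such genes, and 50 of the 30476 rows belonged to them, 14 of 15 PCDHA, 15 of 16 PCDHB and 21 of 22 PCDHG genes. PCDHA3, PCDHB16 and PCDHGB5 did not match a row, so their expression was not analysed here. Ribosomal RNA-depleted total RNA was sequenced from TOV21G, a human ovarian clear cell carcinoma cell line with mutated ARID1A. One library came from parental cells. The other 4 came from EZH2 inhibitor-resistant (EIR) clones 3 and 4, which were picked after stepwise selection of TOV21G cells in GSK126, an EZH2 inhibitor, from 5 to 20 μM, and each clone was sequenced untreated and GSK126-treated. All 5 libraries therefore share the ARID1A mutation, each EIR clone is 1 line derived from 1 parental line and gave both its libraries.

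Each PCDHA or PCDHG transcript joins 1 variable exon, which has its own promoter and encodes the extracellular part, to constant exons that every member of the cluster uses. PCDHB genes have no constant exons. In neurons, single cells choose a few of these promoters, and the resulting combination of homophilic adhesion proteins gives a cell its surface identity. CTCF and cohesin bind a conserved element at most of the variable promoters, whereas the C-type genes at the end of the PCDHA and PCDHG clusters are controlled differently, and DNA methylation and SMCHD1 repress the clusters.

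The clusters follow each other on the plus strand of chromosome 5 in GRCh37, PCDHA at chr5:140165721-140391932, PCDHB at chr5:140430959-140628933 and PCDHG at chr5:140710081-140892544. Reference transcripts of the PCDHA members had 4 exons, and a median of 53.1% of their bases lay in exons shared with other members. For PCDHG the median was 45.6%, and for PCDHB it was 0%. Reads from a constant exon do not show which member they came from, and RSEM divides them among the members by estimation, so a PCDHA or PCDHG value of 1 member is less certain than a cluster sum. The first constant exon is shown as a short part of the sequence that members of a cluster cannot be told apart by. Most of that sequence lies in the last constant exon, of 2721 bases in PCDHA and 2029 in PCDHG. The exon shown has 59 bases in both clusters (GRCh37, plus strand, chr5:140358534-140358592 for PCDHA and chr5:140874374-140874432 for PCDHG), and capitals mark the 39 positions that are identical between the clusters.
PCDHA constant exon: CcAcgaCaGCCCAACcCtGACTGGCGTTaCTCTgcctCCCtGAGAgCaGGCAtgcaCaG
PCDHG constant exon: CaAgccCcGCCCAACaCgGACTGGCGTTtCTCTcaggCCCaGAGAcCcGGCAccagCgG

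RefSeq promoters (GRCh38.p14) matched 47 of the 53 annotated genes, among them PCDHB16 and PCDHGB5, which did not match a row. The 9-letter word found most often in the promoters of each cluster was searched on both strands. GATGTCGCT stood in 9 of 13 PCDHA promoters, in 0 of 34 promoters of the other clusters and in 0.1025% of 27305 promoters genome-wide. GGTGGCGCT stood in 13 of 14 PCDHB promoters and GCGCCGCTG in 10 of 20 PCDHG promoters, against 0.5237% and 1.2489% of all promoters, and neither was in a promoter of another cluster. The words were picked for being frequent in these promoters, so their counts are a description, and all 3 hold CGCT, the core letters of the conserved element. The windows below are those of members whose values the results turn on, with the word in capitals, and they lie on the plus strand at chr5:140806975-140807013 (PCDHA4), chr5:141094540-141094578 (PCDHB2), chr5:141172562-141172600 (PCDHB7), chr5:141213861-141213899 (PCDHB13) and chr5:141412928-141412966 (PCDHGA10).
PCDHA4: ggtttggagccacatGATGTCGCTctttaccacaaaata
PCDHB2: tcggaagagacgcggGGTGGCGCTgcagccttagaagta
PCDHB7: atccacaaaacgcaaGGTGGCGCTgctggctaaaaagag
PCDHB13: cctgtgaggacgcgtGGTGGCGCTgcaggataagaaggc
PCDHGA10: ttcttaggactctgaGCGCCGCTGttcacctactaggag

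The promoters without their cluster's word were those of the C-type genes PCDHAC1, PCDHAC2, PCDHGC3 and PCDHGC4, of PCDHB1, and of the variable genes PCDHA9, PCDHA11, PCDHGA2, PCDHGA3, PCDHGA4, PCDHGA5, PCDHGA6, PCDHGB2, PCDHGB3 and PCDHGB7, so lack of the word was not particular to the C-type genes. The sequences before the start of PCDHAC2 (chr5:140966226-140966475) and PCDHGC4 (chr5:141484780-141485029) are shown because both genes differed between parental and EIR cells. Neither stretch holds the word of its cluster, which says only that these letters are not in this window. Both stretches do hold the core letters CGCT, whose frequency in other promoters was not counted.
PCDHAC2: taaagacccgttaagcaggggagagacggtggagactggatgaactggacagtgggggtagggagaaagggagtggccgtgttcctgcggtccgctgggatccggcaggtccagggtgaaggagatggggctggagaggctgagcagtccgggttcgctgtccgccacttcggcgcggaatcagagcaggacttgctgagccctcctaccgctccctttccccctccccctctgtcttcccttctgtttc
PCDHGC4: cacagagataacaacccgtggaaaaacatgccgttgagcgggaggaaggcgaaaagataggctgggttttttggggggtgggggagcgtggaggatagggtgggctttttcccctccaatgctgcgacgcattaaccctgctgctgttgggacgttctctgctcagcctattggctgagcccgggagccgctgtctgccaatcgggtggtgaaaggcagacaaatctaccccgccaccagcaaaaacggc

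The libraries held 25479238 to 30764963 counts, and 15588 to 16432 rows reached 10 counts in a library. A list of 8 clear cell and Mullerian epithelial markers held WT1 as a marker usually absent from clear cell carcinoma. Of these 8, 7 matched a row, and PAX8, KRT8 and KRT18 were abundant in every library, but EPCAM was at 401 normalized counts in parental cells and 394 and 492 in clone 3 against 0 and 1.06 in clone 4. The clone 4 libraries thus lacked a marker that the parental library had. Of the 7 matched genes of this list, 4 (EPCAM, WT1, NAPSA and KRT8) were lower and 0 higher in clone 4 than in clone 3 by DESeq2 (9.81% of all rows tested between the clones were called), with a median log2 fold change of -0.65, while the summed level of the list was 22600 normalized counts in parental cells, 24297 and 28014 in clone 3 and 26000 and 25778 in clone 4. The lower WT1 is not the loss of a marker typical of clear cell carcinoma. Of 10 neuronal markers 7 matched, with a summed level of 8121 normalized counts in parental cells, 9554 and 9986 in clone 3 and 3827 and 4101 in clone 4, nearly all of it TUBB3. The synaptic marker SYN1 was at or near 0 in all 5 libraries, and it was the only matched neuronal marker that stayed under 10 counts. Of 6 neuronal markers tested in EIR against parental cells, 1 was higher and 0 lower by DESeq2, beside 25.5% of all tested rows called.

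The members were expressed at a low level. Together they took 57.6 to 84.2 CPM (counts scaled to the library's total), and every member had at least 1 count in some library. The mean over the 5 libraries reached 100 normalized counts (counts divided by the library's size factor) in 5 members and 10 in 27 members, and 7 members never exceeded 3 counts. A count of 0 in a library allows up to 3 counts, so that a member at 0 was not detectable at this depth rather than absent. Per kilobase of reference transcript, PCDHB2 had the highest mean level, 133 normalized counts, followed by PCDHGC3 at 52.1, PCDHB13 at 36.0, PCDHB11 at 28.2 and PCDHGA10 at 23.9. The highest PCDHA member was PCDHA4 at 14.8 per kilobase.

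**Figure D1:**
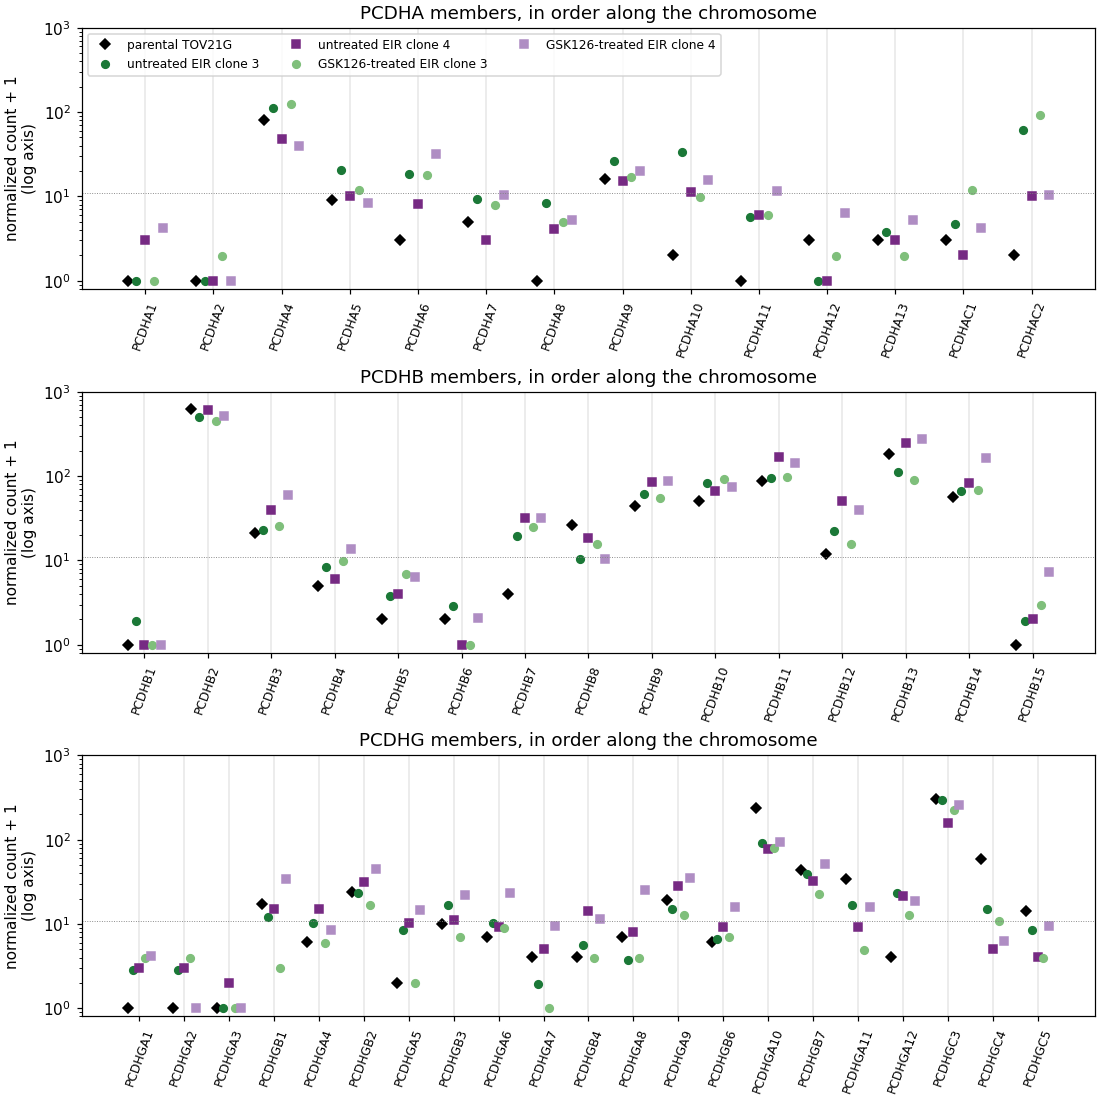
Normalized count plus 1 (log axis) of the 50 members in each library, in their order along the chromosome; diamonds are parental cells, circles clone 3, squares clone 4, light symbols GSK126-treated, and the dotted line marks 10 normalized counts. PCDHB2 lies at 456 or higher in every library, and PCDHAC2 spans 1.01 in parental cells to 90.9 in treated clone 3.

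Few members carried each cluster, and the leading one was the same in every library. PCDHA4 took 67.8% of the PCDHA counts in parental cells (78 of 115, 95% Wilson interval 58.8 to 75.7) and 23.8% to 41.9% in the EIR libraries. PCDHB2 took 56.2% of the PCDHB counts in parental cells (interval 53.3 to 59.1) and 36.5% to 50.3% in the EIR libraries. PCDHGC3, a C-type gene, took 38.7% of the PCDHG counts in parental cells and 34.8% to 53.2% in the EIR libraries. The share that would have to be moved between members to turn the composition of 1 library into that of another was 30.6% to 47.4% between parental and EIR libraries for PCDHA, 17.1% and 24.6% between the 2 libraries of a clone, and 16.2% to 44.6% between clones. For PCDHG these were 22.4% to 26.8%, 8.67% and 11.0%, and 18.4% to 23.6%. For PCDHB they were 12.7% to 21.3%, 5.36% and 10.4%, and 11.9% to 17.8%. In PCDHB and PCDHG the 2 libraries of a clone thus lay closer to each other than any other pair, whereas in PCDHA the ranges overlapped. Intervals cover counting error only, and these distances were not tested.

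**Figure D2:**
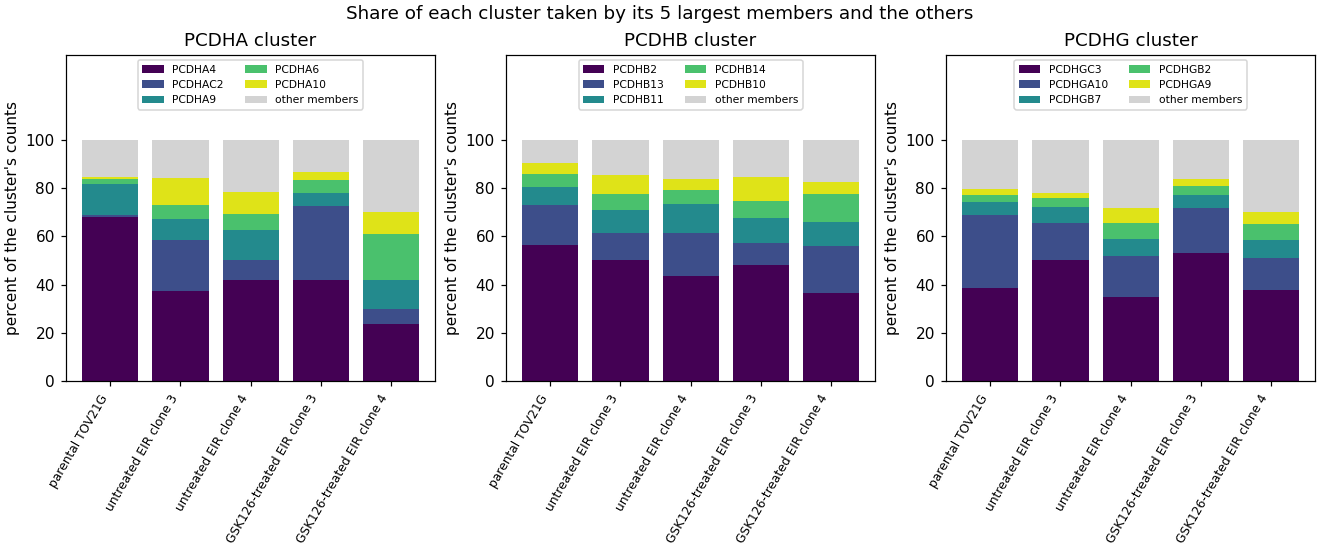
Percent of each cluster's counts taken by its 5 largest members and by the others, 1 bar per library. PCDHA4 fills 67.8% of the parental PCDHA bar and no more than 41.9% of an EIR bar, where PCDHAC2 reaches 30.6%.

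The first comparison asked which members differed between EIR and parental cells. Summed over a cluster, all 4 EIR libraries lay on 1 side of the parental library only for PCDHG. The PCDHA sum was 116 normalized counts in parental cells, 292 and 297 in untreated and treated clone 3, and 112 and 160 in untreated and treated clone 4. Clone 3 was thus above parental cells in both libraries, whereas clone 4 lay on both sides of them, and the mean log2 ratio to parental cells was 0.78 ± 0.69 (SD, n = 4 libraries). The PCDHB sum was 1104 in parental cells, 1006 and 951 in clone 3 and 1404 and 1425 in clone 4, so the clones lay on opposite sides (0.09 ± 0.31). The PCDHG sum was 783 in parental cells, 592 and 418 in clone 3 and 454 and 685 in clone 4, below parental cells in all 4 EIR libraries (-0.57 ± 0.33). Treated clone 4 was nearest to parental cells, at a log2 ratio of -0.19. The median GC content of the PCDHG members was 53.8%. Rows averaging at least 100 normalized counts and within 2 points of it had a median ratio of -0.27. Whether all 4 EIR libraries stay below parental cells with a GC correction was not tested. The SD is over EIR libraries only, since there was 1 parental library, and no test was made of these sums.

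**Figure D3:**
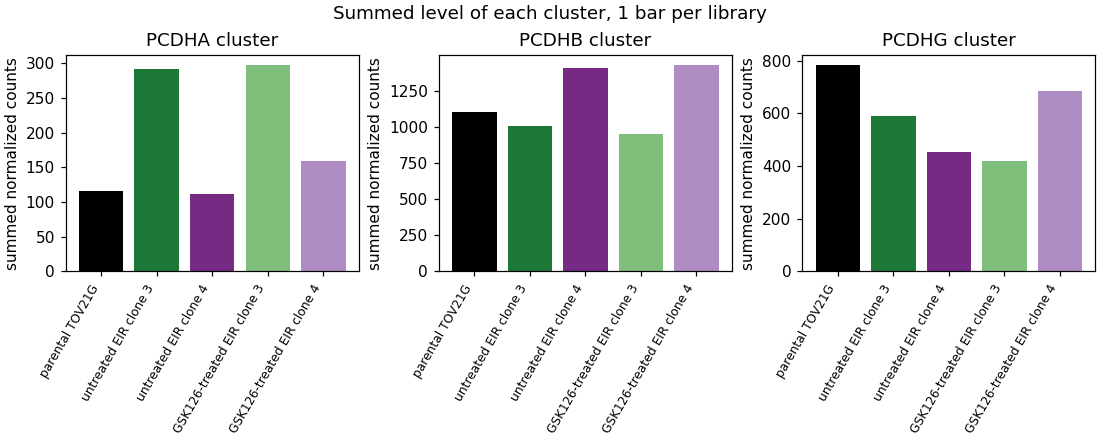
Summed normalized counts of the PCDHA, PCDHB and PCDHG members, 1 bar per library. Clone 3 has the 2 tallest PCDHA bars and clone 4 the 2 tallest PCDHB bars, and the parental PCDHG bar is the tallest at 783.

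Single members changed more than the sums. In the DESeq2 Wald test on all rows, with Benjamini-Hochberg adjusted p under 0.05, 27 of the 50 members received an adjusted p, 2 rose (PCDHAC2 and PCDHB7) and 2 fell (PCDHGA10 and PCDHGC4) in EIR cells. These 4 are 14.8% of the 27, against 25.5% of all 16288 rows with an adjusted p, and the difference between these shares was not tested. The other 23 members were too low to receive one. The median log2 fold change of the tested members was 0.55, beside 0.0025 over all tested rows. It was 1.85 for 6 PCDHA, 0.67 for 10 PCDHB and -0.10 for 11 PCDHG members. A row received an adjusted p by its mean over all libraries, most of which were EIR. Members low in parental cells thus entered through their EIR values, as PCDHAC2 and PCDHB7 did with 1 and 3 parental counts. These medians therefore lean towards members higher in EIR cells.

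PCDHGA10 is a variable PCDHG gene with the cluster's word in its promoter. Its normalized count was 235 in the parental library, 90.7 and 78.1 in untreated and treated clone 3, and 77.3 and 92.0 in untreated and treated clone 4. All 4 EIR libraries lay below the parental library and within 84.5 ± 7.93 (SD, n = 4) of each other. The log2 fold change was -1.47 (SE 0.34, DESeq2 adjusted p = 0.000171), and edgeR's quasi-likelihood test also called it (adjusted p = 0.0432, range over the alternatives 0.000163 to 0.0663). The call was lost only where the libraries of each clone were summed (adjusted p = 0.0663).

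PCDHGC4 is a C-type gene of the PCDHG cluster. Its normalized count was 57.4 in the parental library, 13.9 and 9.88 in clone 3 and 4.07 and 5.29 in clone 4. Every EIR library was below the parental one, and the log2 fold change was -2.79 (SE 0.98, DESeq2 adjusted p = 0.0225). The call was lost with edgeR (adjusted p = 0.0505), with a GC correction (0.0540) and without untreated clone 4, treated clone 3 or treated clone 4 (0.0620, 0.0789 and 0.0750), and where the libraries of each clone were summed (0.175).

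PCDHAC2, the C-type gene at the end of the PCDHA cluster, had 1 count in the parental library. Its normalized count was 1.01 there, 61.1 and 90.9 in untreated and treated clone 3, and 9.16 and 9.52 in clone 4. All EIR libraries were above the parental library and clone 3 was far above clone 4. The ratio of EIR to parental counts was 43.5 (95% exact counting interval 7.70 to 1726), and the fitted log2 fold change was 5.41 (SE 1.98, DESeq2 adjusted p = 0.0290). The call was lost with edgeR (adjusted p = 0.195) and without untreated or treated clone 3 (0.0675 and 0.0952), and where the libraries of each clone were summed (0.0781).

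PCDHB7, a single-exon member of the PCDHB cluster, had 3 counts in the parental library. Its normalized count was 3.02 there, 18.5 and 23.7 in clone 3 and 30.5 and 30.7 in clone 4. All 4 EIR libraries were higher, with a ratio of 8.48 (95% exact counting interval 2.82 to 41.8) and a fitted change of 3.09 on the log2 scale (SE 1.07, adjusted p = 0.0197 by DESeq2). The call was lost with edgeR (adjusted p = 0.0641) and without untreated clone 4, treated clone 3 or treated clone 4 (0.0718, 0.0687 and 0.0608), and where the libraries of each clone were summed (0.205).

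The other members with a mean of at least 100 were not called. PCDHB2, the most abundant member, had 620 normalized counts in the parental library against 506 and 456 in clone 3 and 609 and 521 in clone 4 (log2 fold change -0.25, SE 0.25, DESeq2 adjusted p = 0.521). PCDHGC3 had 303 against 297 and 222 in clone 3 and 158 and 258 in clone 4 (-0.37, SE 0.42, DESeq2 adjusted p = 0.562). Both lay below the parental library in all 4 EIR libraries, and for both the fitted fold change was smaller than its SE. The mean log2 ratio to the parental library was -0.25 for PCDHB2 and -0.41 for PCDHGC3. Rows with a mean of at least 100 and GC content within 2 points of theirs had median ratios of -0.27 and -0.37. With the GC correction the ratios of the 2 members were -0.0024 and -0.09. PCDHB11 had 85.6 against 94.4 and 96.9 in clone 3 and 169 and 141 in clone 4, all above parental cells (0.55, SE 0.50, DESeq2 adjusted p = 0.459). PCDHB13 had EIR libraries on both sides of the parental one (-0.01, SE 0.70, DESeq2 adjusted p = 0.993).

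**Figure D4:**
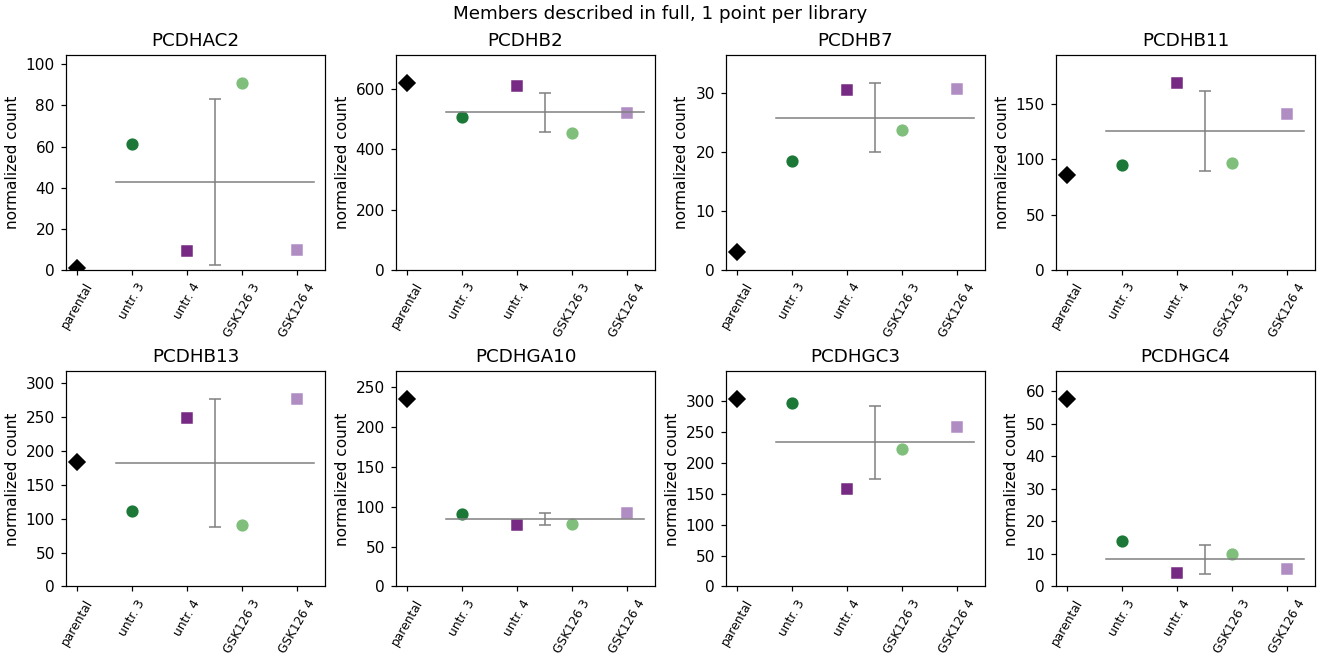
Normalized count of the 8 members described in full, 1 point per library (diamond parental, circles clone 3, squares clone 4); the grey line is the mean of the 4 EIR libraries and the bar its SD. PCDHGA10 and PCDHGC4 lie below the parental point in all EIR libraries, PCDHB7 and PCDHAC2 above it, and PCDHB13 splits by clone.

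The side of the parental library on which the EIR libraries lay was counted for all tested members. Among these 27, all 4 EIR libraries were above parental cells in 12 (44.4%, against 33.4% of all tested rows) and below in 6 (22.2%, against 36.6%), so that lying on 1 side was no more frequent among the members than among rows in general. The count above is raised by members that were low in parental cells and were tested only through their EIR values. Of the 10 tested PCDHB members, 7 were above in all 4, PCDHB3, PCDHB7, PCDHB9, PCDHB10, PCDHB11, PCDHB12 and PCDHB14. Only PCDHB7 of these was called. Of the 11 tested PCDHG members 4 were below in all 4, PCDHGA10, PCDHGA11, PCDHGC3 and PCDHGC4. PCDHA10 and PCDHA6, named after their values were seen, had 1 and 2 counts in the parental library and 9 to 35 and 7 to 29 in the EIR libraries, ratios of 16.8 (95% exact counting interval 2.91 to 673) and 8.89 (2.37 to 74.8), with DESeq2 adjusted p = 0.0836 and 0.0913.

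The second comparison set clone 4 against clone 3, each with its untreated and treated library. PCDHAC2 was lower and PCDHB13 higher in clone 4. These were the 2 members called of 35 with an adjusted p (5.71%, against 9.81% of 17708 rows). For PCDHAC2 the normalized counts given above differed by -3.01 on the log2 scale (SE 0.76, adjusted p = 0.00158 by DESeq2). PCDHB13, the second most abundant PCDHB member, had 112 and 89.9 normalized counts in untreated and treated clone 3 and 249 and 276 in clone 4, with 183 in parental cells between them. The clones did not overlap, and the log2 fold change was 1.38 (SE 0.38, DESeq2 adjusted p = 0.00426). Without treated clone 3 neither call held (adjusted p = 0.189 for PCDHAC2 and 0.124 for PCDHB13). The direction of both was kept under every alternative run.

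PCDHA4, the leading PCDHA member, was named after its values were seen. Its normalized count was 109 and 125 in clone 3 and 46.8 and 38.1 in clone 4, with 78.6 in parental cells. The clones did not overlap, but the DESeq2 test missed the threshold (log2 fold change -1.47, SE 0.54, adjusted p = 0.0598), whereas edgeR's quasi-likelihood test gave adjusted p = 0.0215 and DESeq2 without the treatment covariate 0.00754; over all alternatives it ran from 0.00754 to 0.470.

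The clusters differed in direction between the clones. The PCDHA sum was lower in clone 4 (log2 ratios of -1.38 untreated and -0.90 treated) and the PCDHB sum higher (0.48 and 0.58), while the PCDHG sum went both ways (-0.38 and 0.71). Of the 11 tested PCDHB members, 8 had both clone 4 libraries above both clone 3 libraries and 1, PCDHB10, below, where 29.3% and 31.4% of all tested rows did. Of 16 tested PCDHG members 7 were above and 1, PCDHGC4, below. The 4 genes of the epithelial list named above, WT1 among them, and, of 6 neuronal markers tested, TUBB3 and RBFOX3 were also lower in clone 4, RBFOX3 with 136 and 143 normalized counts in clone 3 and 8.14 and 12.7 in clone 4 (log2 fold change -3.77, DESeq2 adjusted p = 5.86e-08). The part of these marker differences in the protocadherin values was not tested.

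The third comparison, GSK126-treated against untreated EIR cells, called 0 of 50 members by DESeq2, against 0.00335% of 29847 rows (1 row). No member had an unadjusted p under 0.05 in DESeq2 or in edgeR. Both treated libraries lay above both untreated ones in 5 of the 50 members, against 10.7% of all rows tested, and below them in 2, against 7.83%. PCDHGA10 had 90.7 and 77.3 untreated and 78.1 and 92.0 treated (log2 fold change 0.0041, SE 0.47), and PCDHAC2 had 61.1 and 9.16 untreated and 90.9 and 9.52 treated (0.50, SE 1.28). Taken across the clones, the untreated and treated values overlapped for both. Within each clone PCDHAC2 was higher in the treated library, whereas PCDHGA10 went down in clone 3 and up in clone 4. With the clone number as a block the log2 fold changes were 0.35 (SE 0.75) for PCDHAC2 and 0.0046 (SE 0.51) for PCDHGA10. With 2 libraries in each state an effect of 1 on the log2 scale was often missed on simulated data, where 43% of such genes were recovered. The simulated libraries were drawn independently, without the clones that the real libraries share. The share of 43% was also not worked out at the low levels of the members, of which 5 averaged 100 or more and 23 under 10. It therefore does not tell how often a change in most members would be missed, and 0 calls do not show that they were unchanged.

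The other genes of the pathway were given from fixed lists. Of 17 regulators of the clustered promoters (CTCF, cohesin and its loaders, SMCHD1, DNA methyltransferases and others), 7 rose and 0 fell in EIR cells, against 25.5% of all tested rows called in either direction. The largest were the cohesin partner PDS5B (log2 fold change 1.12, adjusted p = 0.00208), the cohesin subunit STAG1 (1.10, adjusted p = 0.000354), the loader NIPBL (1.09, adjusted p = 0.0173) and the cohesin subunit SMC3 (0.99, adjusted p = 0.00748), all by DESeq2. SMCHD1, a repressor of the clusters, and CTCF were named after their values were seen. SMCHD1 was at 2550 in the parental library and at 3726 to 5136 across the EIR libraries, in normalized counts (0.80, DESeq2 adjusted p = 0.00650), and CTCF had 2615 against 2565 to 2937 (0.06, DESeq2 adjusted p = 0.838). Log2 ratios of EIR to parental cells varied with GC content. Rows averaging at least 100 normalized counts had a median of 0.33 within 2 points of 40.0% GC. Within 2 points of 57.2% GC the median was -0.37. The part of GC content in the changes of the regulators was not tested. Between the clones DNMT3A, a DNA methyltransferase, was the regulator that differed, at 204 and 230 normalized counts in clone 3 and 401 and 439 in clone 4 (0.95, DESeq2 adjusted p = 0.0174).

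Of 17 matched binding partners and proteases, 1 rose (PDCD10) and 3 fell (AXIN1, APH1A and ABI1) in EIR cells, a share near the 25.5% of all tested rows. The kinase FYN and the actin regulator WASF3 were higher in clone 4, 2 of 17 beside 9.81% of all tested rows. Of 6 non-clustered protocadherins tested, PCDH1 fell (110 normalized counts in parental cells against 17.3 to 41.3, log2 fold change -1.88, DESeq2 adjusted p = 0.0166). None of the 6 was called higher, and 25.5% of all tested rows were called in this comparison. Their median log2 fold change was 1.84, beside 0.0025 over all tested rows. As for the members, this median leans towards genes higher in EIR cells. The 11 matched genes summed to 178 normalized counts in parental cells and to between 223 and 295 in the EIR libraries. Of 8 tested between the clones, PCDH15 and PCDH18 were higher and PCDH10 lower in clone 4, beside 9.81% of all tested rows called. PCDH10 had its libraries in much the same order as PCDHAC2, with 1.01 in parental cells, 42.6 and 48.4 in clone 3 and 8.14 and 6.35 in clone 4. Among 37 flanking genes within 1 Mb, 29 were tested and 1 rose (HBEGF) and 5 fell, PCDH1 among them, which is no larger a share than the 25.5% of all tested rows, with a median log2 fold change of -0.04 beside 0.0025 over all tested rows. Of the 5 matched clustered protocadherin pseudogenes none received an adjusted p, and they summed to 14.1 normalized counts in the parental library and to between 9.88 and 59.2 in the others.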

How the data were processed

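Gene-level expected counts were deposited by the authors, who sequenced stranded total RNA paired-end, aligned it to hg19 with bowtie2 and estimated counts with RSEM; the deposited values were whole numbers. The submitters' notes name RSEM 1.2.3, and the release of the Ensembl annotation was not given in the sources used here. Identifiers were matched to GENCODE symbols (GRCh37), 29203 of 30476 rows. Members and gene lists were chosen with earlier results of these data known. Named members were those averaging 100 or more normalized counts, or called in a comparison; others named are marked as such. From the lists, up to 4 called genes with the largest absolute fold change were named.

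Size factors and two-sided Wald tests were from DESeq2 1.42.0 (R 4.3.3), on all rows: EIR against parental (4 against 1 libraries), clone 4 against clone 3 with treatment as covariate, and GSK126-treated against untreated EIR. The p-values measure the spread between EIR libraries only. Both libraries of a clone are from 1 line, and their deviations from the group means correlated at 0.86 over 11564 expressed genes, so the clone number was used as a block in an alternative. edgeR 4.0.16, TMM and total count scaling, a low count filter (10 counts in 2 libraries), a minimum log2 fold change of 1, a GC correction, summed clone libraries and leaving out each EIR library were tried. Log2 ratios of sums used no pseudocount. Tests were checked on simulated data.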

Additional observations from a re-analysis of the deposited data

Results flagged for a closer look

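PCDHAC2 and PCDHB13 differed between clone 4 and clone 3, by log2 differences of -3.01 and 1.38, which are also the differences between the clones' changes from the shared parental library. Neither difference has a replicate clone behind it. No described member or cluster sum had an EIR library far from the other 3 by Dixon's test at the 95% level. A difference between the clones leaves each library beside the other library of its clone, so this test could hardly flag it.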

How the results depend on the processing

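With 1 parental library the parental spread is unknown, and 23 of the 50 members were too low to be tested against it. The 4 members called in EIR cells became 1 with edgeR, 0 with the libraries of each clone summed, and 1 to 3 when an EIR library was left out. Only PCDHGA10 was called in all 4 leave-outs. The 2 members called between the clones became 0 to 3 when a library was left out, with 0 without treated clone 3. Counts were within 1.5 times of these under the other alternatives, and no called member changed direction. With the clone number as a block, the treated against untreated comparison called 0 members, as without it, also with the GC correction and with edgeR (the last chosen after seeing the data), so the pairing changed no call. For that comparison the PCDHA log2 ratio was 0.27 and ran from -0.42 to 0.96, the PCDHB ratio was -0.03 and ran from -0.32 to 0.26, and the PCDHG ratio was 0.05 and ran from -0.31 to 0.40, when a library was left out, so the sign of all 3 depended on the library left out. Scaling, GC correction and the low count filter moved no cluster ratio by more than the spread between libraries.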
